A study of Gossypium hirsutum with 6 samples.

Results

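ABC transporter genes were followed in fibers of upland cotton at 5 and at 15 days after flowering. The members were the genes whose Swiss-Prot description in the deposited table contained the words ABC transporter, and 283 of the 73622 genes in the table, or 0.384%, did. They were grouped by the family letter of the Swiss-Prot name, such as B in ABCB19. Of the names, 276 came from Arabidopsis thaliana proteins and 7 from rice (Oryza sativa), so a name states resemblance to a protein of another plant. By letter there were 9 ABCA, 66 ABCB, 50 ABCC, 8 ABCD, 2 ABCE, 18 ABCF, 111 ABCG and 17 ABCI genes. A further 2 genes matched the words without a letter.

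ABC (ATP-binding cassette) proteins bind and split ATP, and most use that energy to move a substrate across a membrane. In Arabidopsis, ABCG proteins at the plasma membrane export wax and cutin precursors to the plant surface, and ABCB proteins such as ABCB1 and ABCB19 export the hormone auxin from cells. ABCC proteins load conjugates and other solutes into the vacuole, ABCD proteins import fatty acids into peroxisomes, and ABCE and ABCF proteins have no membrane part and act with ribosomes. A cotton fiber is a single cell of the seed coat epidermis that elongates under a wax-bearing cuticle, and auxin is a known promoter of fiber initiation.

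RNA of Gossypium hirsutum strain 63 fibers was sequenced from poly(A)-selected RNA at 5 and at 15 days post-anthesis (5DPA and 15DPA, days counted from flowering). Each stage had 3 libraries that the labels call biological replicates, with no treatment or transgene. The labels do not say how many plants or bolls made up a library, nor how fibers were freed from seeds. The question of the comparison is which genes change as fiber growth goes on. Library totals ran from 15.61 to 16.94 M counts. Fiber marker genes (expansins, fasciclin-like proteins, E6 and others) summed to 18448 to 25025 FPKM at 5DPA, then 31339 to 44956 FPKM at 15DPA. They did not move as one: of 82 tested, 25 were called higher and 18 lower, and of 34 tested expansins 8 were called higher and 12 lower. Over all genes tested, in the fit described below, 13.0% were called higher and 10.4% lower. FPKM is the read count per kilobase of gene model and per M counts of the library. Markers of embryo and seed storage summed to 62.2 to 67.2 and 61.2 to 68.1 FPKM, with the 2S albumin genes (2) and the legumin genes (3) at 0. Most of that sum came from vicilin genes, with mean sums of 51.1 and 48.9 FPKM, and 3 of 6 tested were called higher. Green tissue markers summed to 74.0 to 79.8 FPKM at 5DPA, then 25.6 to 46.8 FPKM at 15DPA, and vascular markers to 7.40 to 8.52 and 11.0 to 15.2 FPKM. Markers of dividing cells summed to 1266 to 2363 FPKM at 5DPA, then 211.4 to 427.3 FPKM at 15DPA, with 32 of 44 tested called lower and none called higher, and their part in the results below was not tested. Heat shock protein genes summed to 4370 FPKM in replicate 3 of 15DPA against 985.1 and 784.8 FPKM in replicates 1 and 2, and to 1566 to 1759 FPKM at 5DPA. In replicate 3 of 15DPA, 14 members lay more than 2 times below both other libraries of that stage, against 0 to 4 members in each other library. In replicate 2 of 15DPA, 10 members lay over 2 times both others.

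More ABC genes rose than fell. Genes with a mean of at least 1 FPKM over the 6 libraries were tested with edgeR's quasi-likelihood test, and 153 members, or 54.1%, passed that limit. A gene is said to have risen or fallen at 15DPA where its adjusted p was under 0.05 (Benjamini-Hochberg over all 40054 genes tested). Of the members tested, 46 rose, or 30.1%, where 13.0% of all genes tested did. In the other direction 16 members fell, or 10.5%, where 10.4% of all genes tested did. In both directions together 62 members were called, or 40.5%, against 23.4% of all genes tested. The change was 2-fold or more in 29 of the rises and 12 of the falls. Separate FPKM ranges at the 2 stages were found in 100 of the 153 members, or 65.4%, against 50.2% of all genes tested. The median log2 change, 15DPA over 5DPA, was 0.07 for the members and −0.04 for all genes tested. Of the 44 members with a mean of at least 10 FPKM, 22 rose and 3 fell, and the shares of all genes at that level were not counted. Among genes with a mean of at least 5 FPKM, fitted alone, 42 of 79 members were called, 32 higher and 10 lower. In that fit 29.9% of all genes were called, and 52.2% of those calls were higher.

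These directions hold under TMM scaling, which edgeR applied to the counts, and FPKM values carry no such scaling. With library totals alone the median of all genes tested moved from −0.04 to −0.33 and that of the members from 0.07 to −0.21, and 31 members were called higher and 27 lower. For that reason the log2 change beside an FPKM value lies about 0.3 above the ratio of the FPKM means. Of the 62 calls, 24 held when any one of the 6 libraries was left out, 19 rises and 5 falls. Without replicate 1 of 15DPA 25 members were called, and without replicate 2 or 3 of that stage 65 or 69. Without replicate 1, 2 or 3 of 5DPA 38, 28 or 35 were called. In RNA from many cells, fewer cells of a type and less RNA per cell cannot be told apart. Cotton carries A and D copies of most genes, so reads of near-identical copies may have been shared out, or given to a single copy, when the authors counted them, and values of single genes are uncertain to that degree.

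**Figure D1:**
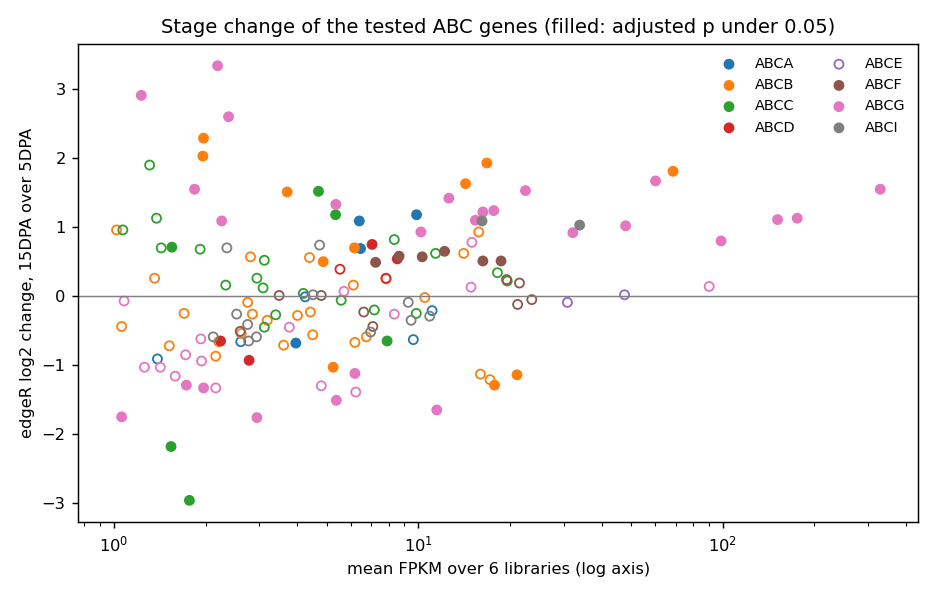
The edgeR log2 change (15DPA over 5DPA) of tested ABC genes is plotted against the mean FPKM over the 6 libraries on a log axis, with color for the family and filled points for an adjusted p under 0.05. Of the 44 genes with at least 10 FPKM, 22 are filled and above 0 and 3 filled and below, while called falls sit mostly below 10 FPKM. The shares of all genes at that level were not counted. The ABCG31 gene Gh_A07G113400 and the 2 genes without a family letter are left out.

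The family sums set ABCG apart from the others in level and in change. Summed over all 111 members, tested or not, ABCG genes reached 920.1, 839.6 and 990.9 FPKM in the 5DPA libraries and 1696, 1390 and 1425 FPKM in the 15DPA libraries. Every 15DPA library lay above every 5DPA library, and the ratio of the means was 1.64 (916.9 ± 75.7 to 1504 ± 167.5 FPKM, SD, n = 3 each). Groups of 3 cannot reach an exact two-sided permutation p below 0.1, so the sums were not tested. The 4 most abundant ABCG genes made up 55.9% of the sum at 5DPA and 66.4% at 15DPA. ABCE was the other family whose stages did not overlap, at 87.1 ± 1.54 FPKM at 5DPA, then 69.9 ± 5.45 FPKM at 15DPA, a ratio of 0.803. The ratios of the remaining families lay between 0.916 for ABCA and 1.05 for ABCB and ABCI, with overlapping libraries. All 283 genes together summed to 1860 ± 55.6 FPKM at 5DPA, then 2432 ± 178.5 FPKM at 15DPA. These sums are on the FPKM scale, and with the TMM factors added the ABCE ratio was 0.983 and the ABCG ratio 2.01. The ratios of the other families were also higher with those factors, as given in the section on processing.

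**Figure D2:**
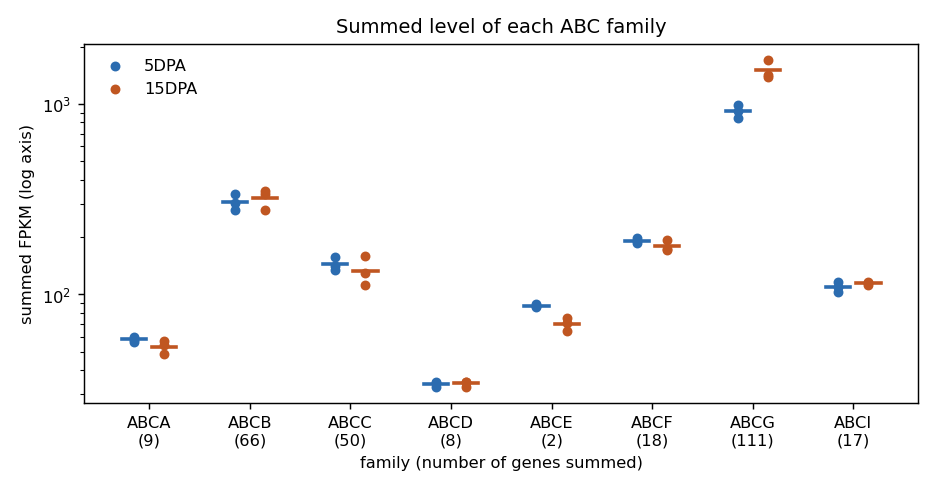
Summed FPKM of each ABC family on a log axis, with 1 point per library and a bar at the mean of 3 libraries, blue for 5DPA and orange for 15DPA; the number of genes summed stands under each family. The ABCG libraries of 15DPA (1390 to 1696 FPKM) lie above those of 5DPA (839.6 to 990.9 FPKM), and the ABCE libraries of 15DPA lie below those of 5DPA.

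Among the ABCG genes, 20 of 43 tested rose and 7 fell, and the median log2 change was 0.14. The share called was 62.8%, against 23.4% of all genes tested. The family holds a short class with a single ATP-binding and a single membrane region, and a long class, also known as pleiotropic drug resistance proteins, with both regions doubled. The class was taken from the number in the name, and the gene models had medians of 2175 bases in the 87 short genes and 4473 bases in the 24 long genes. In the long class 8 of 11 tested genes rose and none fell, with a median log2 change of 1.22, where 13.0% of all genes tested rose and 10.4% fell. The limit for testing was on the mean of both stages, and 13 long genes did not reach it. It let 2 of the 8 rises, Gh_A07G113400 and Gh_D03G063500, pass through 15DPA with a mean under 1 FPKM at 5DPA. A further long gene passed with a mean under 1 FPKM at 15DPA and was not called. In the short class 12 of 32 tested genes rose and 7 fell, with a median of −0.16. A rule on level and size of change chose part of the genes described below; others, such as those named ABCG32, ABCG39, ABCB27, ABCC5, ABCD2 and ABCF4, and the single genes of the other lists, were picked out after their values were seen.

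ABCG11 and ABCG15 were the most abundant ABC genes in these fibers, and all 6 tested genes with those names rose. In Arabidopsis, ABCG11 exports wax and cutin lipids from epidermal cells, and ABCG15 is a close relative of the wax exporter ABCG12. The ABCG15 gene Gh_D05G072500 (chromosome D05, 5849760 to 5855092) was the most abundant member of all. It measured 202.1, 160.7 and 221.6 FPKM in the 5DPA libraries and 554.7, 422.4 and 415.6 FPKM in the 15DPA libraries. All 3 later libraries lay far above all 3 earlier ones, and the log2 change was 1.55 ± 0.24 (SE, adjusted p by edgeR 0.00821). Its partner in name, Gh_A05G056300 (A05, 6602759 to 6608132), measured 80.7, 68.1 and 95.3 FPKM at 5DPA, then 130.2, 116.8 and 101.6 FPKM at 15DPA. The ranges did not overlap, but the nearest libraries were close, and the log2 change was 0.80 ± 0.20 (SE, adjusted p by edgeR 0.0297). This smaller change was not called with library totals alone (log2 0.51, edgeR adjusted p 0.0584), nor without replicate 1 of 15DPA or replicate 1 or 2 of 5DPA, where the edgeR adjusted p reached 0.111.

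The ABCG11 gene Gh_A03G108200 (A03, 43477083 to 43480663) measured 125.4, 110.9 and 142.7 FPKM at 5DPA, then 242.8, 194.0 and 238.9 FPKM at 15DPA. Gh_D02G134700 (D02, 40724462 to 40727941) measured 108.2, 92.8 and 128.2 FPKM at 5DPA, then 204.9, 174.7 and 200.3 FPKM at 15DPA. In both genes each later library was above each earlier one, with log2 changes of 1.13 ± 0.22 and 1.11 ± 0.21 (SE, adjusted p by edgeR 0.0136 and 0.0137). A second pair was lower at 5DPA. Gh_A07G065300 (A07, 8109333 to 8115222) went from 34.2, 31.3 and 35.2 FPKM to 114.9, 80.8 and 64.6 FPKM, a log2 change of 1.67 ± 0.24 (SE, adjusted p by edgeR 0.00680). Gh_D07G065300 (D07, 7173136 to 7178652) went from 34.3, 36.3 and 37.8 FPKM to 65.0, 57.8 and 56.6 FPKM, a log2 change of 1.02 ± 0.15 (SE, adjusted p by edgeR 0.00687). The 15DPA spread of the A07 gene was wide, with replicate 1 highest, and its stages still did not overlap. The calls of the A03 and D02 genes were lost without replicate 1 of 15DPA or replicate 2 of 5DPA, where the edgeR adjusted p reached 0.0621 and 0.0611. The A07 and D07 calls held without any one library. The other 13 genes named ABCG11 were not tested: 8 had no read in any library, the highest mean was 0.835 FPKM, and together they held 0.423% of the summed ABCG11 level. Where a count is 0, up to 3 reads remain possible from counting error alone.

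No gene named ABCG13 or ABCG12 was called. In Arabidopsis, ABCG13 is needed for the cuticle of petals and ABCG12 exports stem wax. The ABCG13 gene Gh_D09G122900 came next in level after both ABCG15 genes and the A03 and D02 genes of ABCG11. It measured 102.3, 89.5 and 94.4 FPKM at 5DPA, then 102.0, 75.6 and 78.0 FPKM at 15DPA, with overlapping stages and a log2 change of 0.14 ± 0.19 (SE, adjusted p by edgeR 0.624). Its partner Gh_A09G130700 had means of 15.9 ± 1.91 and 14.0 ± 4.85 FPKM (SD, n = 3 each) and a log2 change of 0.13. The gene named ABCG12, Gh_D10G162800, has a model of 465 bases, shorter than the short class as a whole. It had means of 4.75 ± 0.774 FPKM at 5DPA, then 2.80 ± 0.907 FPKM at 15DPA and was not called (log2 change −0.45, edgeR adjusted p 0.410).

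Rises in the long class were found at moderate levels first. Arabidopsis ABCG32 exports cutin precursors, and 3 of the 4 cotton genes with that name rose. The ABCG32 gene Gh_A05G016400 (A05, 2057756 to 2066288) measured 15.4, 12.5 and 12.4 FPKM at 5DPA, then 31.8, 27.8 and 34.9 FPKM at 15DPA. Each later library was more than the highest earlier one, and the log2 change was 1.53 ± 0.19 (SE, adjusted p by edgeR 0.00437). Gh_D05G022200 rose by a log2 change of 1.22 ± 0.20 and Gh_A06G067500 by 0.93 ± 0.16, while Gh_D06G065900 had a log2 change of 0.78 ± 0.26 and was not called (SE, adjusted p by edgeR 0.0669). Both tested ABCG39 genes rose. Gh_A05G102400 went from 25.3 ± 2.06 to 39.2 ± 2.14 FPKM and Gh_D05G114700 from 12.1 ± 1.13 to 23.3 ± 2.22 FPKM (SD, n = 3 each), log2 changes of 0.92 and 1.24. Of these 5 rises, that of Gh_A06G067500 was lost without replicate 2 of 5DPA (with an edgeR adjusted p just above the threshold), and the others held without any one library.

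Other long genes were low and changed by larger factors. ABCG36 is a defence exporter in Arabidopsis leaves, and its cotton namesake Gh_D03G063500 (D03, 11482022 to 11490707) measured 0.472, 0.309 and 0.650 FPKM at 5DPA, then 3.69, 2.06 and 5.98 FPKM at 15DPA. The later libraries were spread, yet all were above 2 FPKM, and the log2 change was 3.34 ± 0.49 (SE, adjusted p by edgeR 0.00701). A different pair named ABCG36, Gh_A10G054700 and Gh_D10G068300, had negative log2 changes of −0.85 and −1.03 and was not called. ABCG31 has a part in the pollen coat of Arabidopsis, together with ABCG9. Its cotton namesake Gh_A07G113400 (A07, 18519218 to 18530984) had 1, 0 and 0 reads in the 5DPA libraries and 47, 12 and 52 reads in the 15DPA libraries. Per count sequenced the ratio was 110.8, with an exact 95% interval from 19.5 to 4414 that covers counting error only. The ABCG31 gene on D07, Gh_D07G110600, was present at both stages with 8.37, 6.84 and 8.67 FPKM at 5DPA, then 17.1, 12.6 and 21.9 FPKM at 15DPA. Its stages did not overlap, and its log2 change was 1.42 ± 0.26 (SE, adjusted p by edgeR 0.0122, up to 0.0551 without replicate 1 of 15DPA or replicate 2 of 5DPA).

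Short ABCG genes outside the lipid names went both ways. The ABCG9 gene Gh_A01G066700 measured 0.544, 0.224 and 0.258 FPKM at 5DPA, then 2.25, 2.01 and 2.07 FPKM at 15DPA, a log2 change of 2.91 ± 0.40 (SE, adjusted p by edgeR 0.00577). It was low at 5DPA and nearly equal among the later libraries. ABCG28, which Arabidopsis uses in pollen tube growth, was read at 0.611, 0.759 and 1.06 FPKM and then at 2.42, 1.76 and 7.67 FPKM in its gene Gh_D13G263000. Replicate 3 of 15DPA was far above the other libraries, and the log2 change was 2.60 ± 0.61 (SE, adjusted p by edgeR 0.0235). It was not called without replicate 1 of 15DPA or without any one of the 5DPA libraries (edgeR adjusted p up to 0.0902). Smaller rises were called for both ABCG23 genes (1.33 and 1.09), for the ABCG16 gene Gh_A05G345400 (1.10) and for the ABCG22 gene Gh_A02G138100 (1.55), and each was lost when 1 of several libraries was left out. The edgeR adjusted p of these 4 genes then reached 0.0543, 0.118, 0.0934 and 0.0786.

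The falls in ABCG were all in the short class. ABCG7 fell in both copies. Gh_A01G171700 (A01, 90001085 to 90008789) went from 8.76, 10.4 and 7.79 FPKM to 3.27, 4.06 and 2.85 FPKM, and Gh_D01G169300 (D01, 48269861 to 48277832) from 8.53, 9.56 and 6.98 FPKM to 1.77, 3.37 and 2.10 FPKM. The stages were well apart in both, with log2 changes of −1.12 ± 0.16 and −1.51 ± 0.22 (SE, adjusted p by edgeR 0.00671 and 0.00707), and both calls held without any one library. The ABCG8 gene Gh_A11G243800 measured 11.9, 26.8 and 15.8 FPKM at 5DPA, then 5.00, 7.08 and 2.16 FPKM at 15DPA, a log2 change of −1.65 ± 0.41 (SE, adjusted p by edgeR 0.0288). Replicate 2 was highest in each stage, and the call was lost without replicate 1 of 15DPA or replicate 2 or 3 of 5DPA (edgeR adjusted p up to 0.101). Both ABCG5 genes showed a like order of libraries without a call: Gh_A05G390700 measured 6.22, 15.4 and 6.80 FPKM and then 2.98, 4.95 and 1.01 FPKM, a log2 change of −1.39 ± 0.53 (SE, adjusted p by edgeR 0.0936). Replicate 2 also had the highest dividing-cell sum of its stage, 2363 FPKM at 5DPA, then 427.3 FPKM at 15DPA, and the part of that in these values was not tested. ABCG14 moves the hormone cytokinin from root to shoot in Arabidopsis, and its gene Gh_D08G170900 fell from 4.72 ± 0.441 to 1.17 ± 1.00 FPKM (SD, n = 3 each), a log2 change of −1.76 ± 0.49 (SE, adjusted p by edgeR 0.0386). Gh_A10G209700, named ABCG24, fell by 1.33 on the log2 scale. The ABCG3 genes Gh_A05G093000 and Gh_D05G105100 fell by 1.29 and 1.75 on the log2 scale, and the ABCG3 pair on A03 and D03 was not called. The calls of ABCG14, ABCG24 and ABCG3 were each lost when 1 library was left out (edgeR adjusted p up to 0.106, 0.0515, 0.149 and 0.147 in the order given). ABCG25, an exporter of abscisic acid in Arabidopsis, had 3 tested genes with log2 changes of −0.62, −1.03 and −1.16, and none was called (edgeR adjusted p 0.283, 0.0716 and 0.169).

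**Figure D3:**
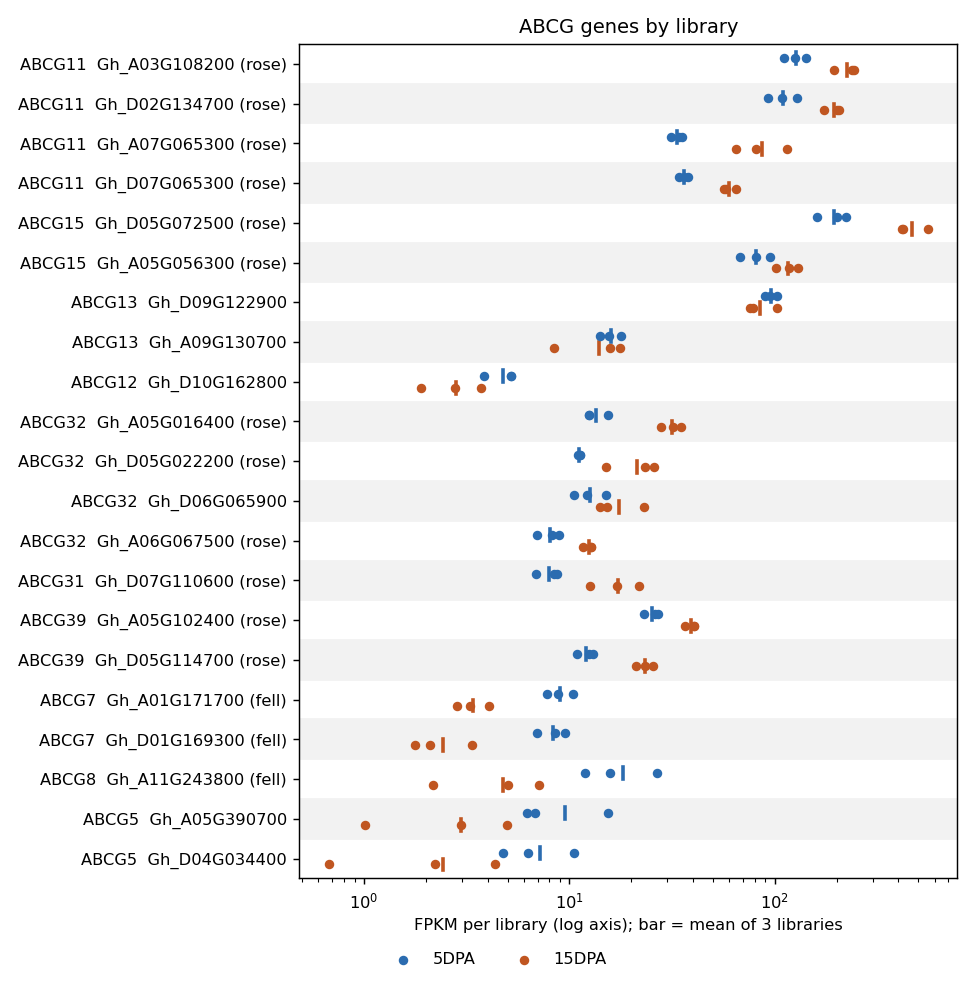
FPKM per library of 21 ABCG genes on a log axis, with 5DPA in blue, 15DPA in orange and a bar at the mean of 3 libraries; the words rose and fell mark an edgeR adjusted p under 0.05. The ABCG11 and ABCG15 genes sit at the right with the orange points to the right of the blue ones, the ABCG13 genes overlap, and the ABCG7 and ABCG8 genes have the orange points to the left.

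Other genes of surface lipid metabolism were taken by description. Of 121 tested surface lipid synthesis genes 44 rose and 10 fell, where 13.0% of all genes tested rose and 10.4% fell. The median log2 change was 0.47 beside −0.04 for all genes tested. The summed level of the surface lipid synthesis genes was 4740 ± 556.2 FPKM at 5DPA, then 6987 ± 652.4 FPKM at 15DPA (SD, n = 3 each). Within that list, 16 of 30 tested 3-ketoacyl-CoA synthase genes, which lengthen fatty acids, rose and none fell. Of the 6 tested cytochrome P450 86 genes, which hydroxylate fatty acids for cutin, 3 rose and none fell. Of 5 tested fatty acyl-CoA reductase genes, which make wax alcohols, none rose and 2 fell. Among 57 tested lipid transfer protein genes 13 rose and 10 fell, beside the 13.0% and 10.4% of all genes tested, with a median log2 change of 0.43.

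ABCB genes changed in both directions, with a sum that was nearly level on the FPKM scale. With the TMM factors added its ratio was higher, as given in the section on processing. Of 37 tested genes 8 rose and 3 fell, with a median log2 change of −0.23. The share called was 29.7%, near the 23.4% of all genes tested, of which 13.0% rose and 10.4% fell. The family summed to 305.5 ± 30.5 FPKM at 5DPA, then 321.8 ± 37.4 FPKM at 15DPA (SD, n = 3 each). Of the genes named after the auxin exporters, ABCB19 summed to 106.0 ± 27.3 FPKM at 5DPA, then 38.5 ± 10.6 FPKM at 15DPA, and ABCB1 to 35.1 ± 8.33 and 34.3 ± 10.3 FPKM (SD, n = 3 each).

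ABCB19 had lower values at 15DPA in all 4 tested genes, of which 2 fell. Gh_A07G240800 (A07, 93948339 to 93954724) measured 30.9, 30.1 and 31.4 FPKM at 5DPA, then 9.02, 11.5 and 13.6 FPKM at 15DPA. The 5DPA libraries were nearly equal and the later ones far below, and the log2 change was −1.14 ± 0.18 (SE, adjusted p by edgeR 0.00876). Gh_D07G238300 (D07, 56081115 to 56087623) measured 21.1, 35.0 and 23.7 FPKM at 5DPA, then 8.35, 11.7 and 6.69 FPKM at 15DPA, a log2 change of −1.29 ± 0.23 (SE, adjusted p by edgeR 0.0110, and 0.0522 without replicate 1 of 15DPA). On chromosomes A09 and D09 the log2 changes were of like size with a wider spread. Gh_D09G021700 measured 17.3, 37.1 and 21.6 FPKM at 5DPA, then 10.6, 12.1 and 4.25 FPKM at 15DPA, a log2 change of −1.21 ± 0.39 (SE, adjusted p by edgeR 0.0615). Its stages did not overlap, and with library totals alone it was called (edgeR adjusted p 0.0405). Gh_A09G023700 measured 14.2, 34.2 and 21.2 FPKM at 5DPA, then 7.58, 14.6 and 4.18 FPKM at 15DPA, with stages that overlapped slightly and a log2 change of −1.13 ± 0.43 (SE, adjusted p by edgeR 0.0954). It was called without replicate 2 of 15DPA (edgeR adjusted p 0.0306). In each of the D07, A09 and D09 genes, replicate 2 was the highest library of its stage, as it was for the dividing-cell sum given above; the A07 gene did not show this order. The part of that sum in the ABCB19 values was not tested.

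ABCB1 showed no called change in any of its 4 genes. Gh_A09G166700 measured 8.78, 18.5 and 9.64 FPKM at 5DPA, then 19.1, 28.1 and 10.5 FPKM at 15DPA, a log2 change of 0.93 ± 0.37 (SE, adjusted p by edgeR 0.103). Replicate 3 of 15DPA lay among the earlier libraries, and without it the gene was called (edgeR adjusted p 0.0287). Gh_A01G239700 had means of 11.7 ± 0.903 and 9.32 ± 2.42 FPKM (SD, n = 3 each), and its log2 change was −0.02 ± 0.22 (SE). The D01 and D09 genes had log2 changes of −0.67 and −0.66. ABCB4 carries auxin in Arabidopsis root hairs, which like fibers are single epidermal cells, and Gh_D12G137800 was its single tested gene. It measured 0.953, 0.581 and 1.16 FPKM at 5DPA, then 3.10, 3.41 and 2.56 FPKM at 15DPA, low at both stages with no overlap, and the log2 change was 2.03 ± 0.29 (SE, adjusted p by edgeR 0.00646).

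Among other genes of auxin transport, 6 of 46 tested rose and 8 fell, with a median log2 change of −0.22. Of all genes tested 13.0% rose and 10.4% fell, so the share of rises in the list was that of all genes and the share of falls was higher. The efflux carriers known as PIN had 3 rises and 2 falls among 11 tested. Gh_A11G352000, described as component 1c, went from 9.29 ± 3.30 to 36.1 ± 12.6 FPKM, and the component 3 gene Gh_A01G170400 from 13.4 ± 2.41 to 26.5 ± 3.07 FPKM (SD, n = 3 each), with log2 changes of 2.24 and 1.27 (edgeR adjusted p 0.00822 and 0.00707). The component 1c gene on D11, Gh_D11G355700, was not called (log2 change −0.11), and the component 3 gene on D01, Gh_D01G167800, rose (1.26). The component 6 gene Gh_A02G078700 fell by 1.74 on the log2 scale (edgeR adjusted p 0.0138). Of 9 tested auxin transporter-like genes, which take auxin up, none rose and 3 fell. Genes described as PIN-LIKES had 3 rises and no fall among 11 tested. The kinase genes of the list had no rise, with 2 falls among 6 tested D6PK genes and 1 fall among 5 tested PINOID genes. FKBP42, which folds ABCB1 and ABCB19 in Arabidopsis and is known there as TWISTED DWARF1, had 2 tested genes and none called, and the pair summed to 34.0 ± 4.15 and 36.4 ± 1.45 FPKM (SD, n = 3 each).

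The most abundant ABCB gene was named ABCB2, and both tested genes of that name rose. Gh_A03G004100 (A03, 335150 to 343357) measured 33.6, 29.2 and 43.9 FPKM at 5DPA, then 118.7, 90.0 and 96.9 FPKM at 15DPA, a log2 change of 1.81 ± 0.24 (SE, adjusted p by edgeR 0.00551). Gh_D03G194600 (D03, 53334558 to 53342776) measured 6.67, 8.77 and 9.06 FPKM at 5DPA, then 28.9, 26.5 and 20.7 FPKM at 15DPA, a log2 change of 1.93 ± 0.19 (SE, adjusted p by edgeR 0.00259). Both genes were higher in every later library than in any earlier one, and both calls held without any one library. ABCB27 is tied to aluminium tolerance at the vacuole in Arabidopsis. Its gene Gh_A05G388100 went from 7.78, 7.82 and 8.81 FPKM to 21.6, 16.5 and 23.1 FPKM, a log2 change of 1.63 ± 0.20 (SE, adjusted p by edgeR 0.00450). A second ABCB27 gene, Gh_D04G037000, began at the same level, 7.98 ± 0.289 FPKM, and was at 7.70 ± 1.57 FPKM at 15DPA (SD, n = 3 each), with no call. Lower genes that rose were the ABCB9 gene Gh_A10G024100, from 0.784 ± 0.391 to 3.16 ± 0.595 FPKM with a log2 change of 2.29, and the ABCB11 gene Gh_A12G137700, from 2.23 ± 0.761 to 5.19 ± 0.643 FPKM with a log2 change of 1.51 (SD, n = 3 each). The ABCB11 call was lost without replicate 1 of 15DPA (edgeR adjusted p 0.0537). Among the 6 tested genes named ABCB25, 1 fell, Gh_A12G148200, by 1.03 on the log2 scale (edgeR adjusted p 0.0229, up to 0.0968 with 1 library left out). Its name comes from the rice protein ABCB25. The tested genes named after Arabidopsis ABCB25, a mitochondrial exporter, were Gh_A03G033700 and Gh_D03G163500. Neither was called, with log2 changes of −0.28 and −0.23.

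**Figure D4:**
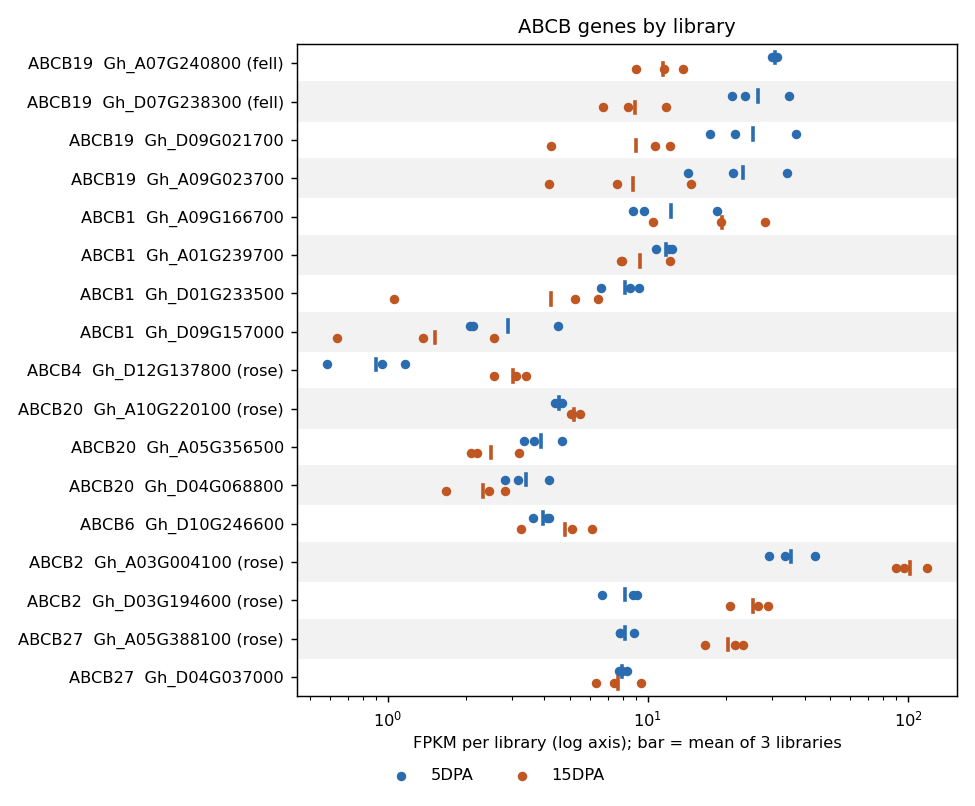
FPKM per library of 17 ABCB genes on a log axis, with 5DPA in blue, 15DPA in orange and a bar at the mean of 3 libraries; the words rose and fell mark an edgeR adjusted p under 0.05. The 4 ABCB19 genes have their orange bars to the left of the blue ones and the ABCB2 genes to the right. Stages of the ABCB1 genes overlap except in Gh_D01G233500, with means of 8.15 FPKM at 5DPA and 4.24 FPKM at 15DPA. Its nearest libraries are at 6.61 FPKM at 5DPA and 6.42 FPKM at 15DPA.

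ABCC genes, the vacuolar family, had 3 rises and 3 falls among 25 tested, with a median log2 change of 0.26. The share called, 24.0%, was near the 23.4% of all genes tested. Its most abundant members were ABCC1 and ABCC2, which load phytochelatin complexes into Arabidopsis vacuoles. Gh_D12G046300, named ABCC1, measured 21.6, 19.5 and 19.0 FPKM at 5DPA, then 19.1, 22.6 and 15.5 FPKM at 15DPA. Gh_A12G049300, named ABCC2, measured 17.5, 19.3 and 17.1 FPKM at 5DPA, then 18.7, 19.3 and 17.3 FPKM at 15DPA. The stages overlapped in both and neither was called (edgeR adjusted p 0.320 and 0.0965). The larger falls were in low genes. ABCC14 had 1 gene, Gh_D08G078900 (D08, 11914245 to 11919576), with 3.19, 3.08 and 3.36 FPKM at 5DPA, then 0.397, 0.171 and 0.427 FPKM at 15DPA. The early libraries were nearly equal, the later ones were all at or below 0.427 FPKM, and the log2 change was −2.96 ± 0.36 (SE, adjusted p by edgeR 0.00435). ABCC3 transports glutathione conjugates in Arabidopsis, and both of its tested genes fell while its other 13 genes stayed below the limit for testing. Gh_D13G155100 went from 2.02, 3.22 and 2.57 FPKM to 0.469, 0.649 and 0.298 FPKM, a log2 change of −2.18 ± 0.29 (SE, adjusted p by edgeR 0.00534). Gh_D11G308000 went from 10.4 ± 1.51 to 5.38 ± 1.02 FPKM (SD, n = 3 each), a log2 change of −0.65, which was lost when any 1 of 5 libraries was left out (edgeR adjusted p up to 0.138).

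ABCC5 moves phytate into the vacuole in Arabidopsis, and 2 of its 4 cotton genes rose. Gh_A07G167200 went from 2.67, 3.56 and 2.22 FPKM to 7.35, 7.67 and 4.71 FPKM, and Gh_D07G165600 from 2.79, 5.05 and 3.45 FPKM to 6.75, 8.28 and 5.79 FPKM. Neither gene overlapped between stages, and both rose, by log2 changes of 1.52 ± 0.22 and 1.18 ± 0.21 (SE, adjusted p by edgeR 0.00670 and 0.0120, the latter 0.0520 without replicate 1 of 15DPA). Gh_A11G141900 and Gh_D11G143400 were not called, with log2 changes of 0.82 ± 0.35 and −0.20 ± 0.49 (SE, adjusted p by edgeR 0.122 and 0.786). Replicate 3 of 15DPA was the lowest library in both, at 4.79 and 1.95 FPKM, and without it the A11 gene was called (edgeR adjusted p 0.0121). ABCC10 had the third rise, Gh_D11G012600, from 1.33 ± 0.0227 to 1.78 ± 0.213 FPKM (SD, n = 3 each), a log2 change of 0.71. It was not called with library totals (edgeR adjusted p 0.137), nor without replicate 1 of 15DPA or any one 5DPA library (edgeR adjusted p up to 0.125). Glutathione S-transferase genes, which make the conjugates, and DETOXIFICATION carriers had 14 rises and 11 falls among 114 tested, with a median log2 change of −0.14, and both shares were near those of all genes tested (13.0% and 10.4%). Their sum was 4567 ± 159.0 FPKM at 5DPA, then 3651 ± 267.1 FPKM at 15DPA (SD, n = 3 each).

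In ABCD, the peroxisomal family, 2 of 6 tested genes rose and 2 fell, a called share of 66.7% against 23.4% of all genes tested. Without TMM scaling the family summed to 34.0 ± 1.07 FPKM at 5DPA, then 34.1 ± 1.22 FPKM at 15DPA (SD, n = 3 each). Both ABCD2 genes fell: Gh_A01G024400 from 3.88 ± 0.260 to 1.68 ± 0.458 FPKM and Gh_D01G021500 from 2.95 ± 0.371 to 1.53 ± 0.206 FPKM (SD, n = 3 each), log2 changes of −0.93 and −0.65. Their calls were lost when 1 library was left out (edgeR adjusted p up to 0.0869 and 0.143).

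In ABCA, 3 of 9 tested genes rose and 1 fell, a called share of 44.4% against 23.4% of all genes tested. The ABCA7 gene Gh_A12G197800 (A12, 93758335 to 93766681) measured 6.95, 7.33 and 6.49 FPKM at 5DPA, then 13.2, 13.7 and 11.6 FPKM at 15DPA, a log2 change of 1.18 ± 0.12 (SE, adjusted p by edgeR 0.00270). An ABCA7 gene on an unplaced contig, Gh_Contig01109G001800, had a log2 change of 1.09 ± 0.17 (SE). The later libraries of the A12 gene were all well above the earlier ones. Next to it on A12, the ABCA7 models Gh_A12G198000 and Gh_A12G198200, of 456 and 681 bases, had log2 changes of −0.63 and −0.66 and were not called. ABCA2 rose in Gh_A11G033400 by a log2 change of 0.69, which was not called with library totals (edgeR adjusted p 0.0856) or without replicate 1 of 15DPA or any one 5DPA library (up to 0.113), and its partner Gh_D11G033700 had −0.21. ABCA1 fell in Gh_A01G138700 by 0.68 on the log2 scale (edgeR adjusted p 0.0218, up to 0.0894 with 1 library left out), and its partner Gh_D01G139600 had −0.01.

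ABCE and ABCF proteins carry no membrane part. ABCE2, which takes spent ribosomes apart, was abundant at both stages and not called. Gh_D08G170500 measured 50.2, 53.5 and 52.4 FPKM at 5DPA, then 40.1, 46.5 and 42.8 FPKM at 15DPA, and Gh_A08G172400 measured 36.3, 35.4 and 33.5 FPKM and then 24.0, 28.4 and 28.0 FPKM. In FPKM the stages did not overlap in either gene, but after TMM scaling the log2 changes were 0.02 ± 0.12 and −0.09 ± 0.13 (SE, adjusted p by edgeR 0.918 and 0.614). In ABCF, whose members resemble the yeast translation factor GCN20, 6 of 15 tested genes rose and none fell. Those rises made a called share of 40.0%, against 23.4% of all genes tested. All 4 ABCF4 genes were among the 6, with log2 changes of 0.49 to 0.65. Gh_D07G127100 had the largest, with 10.0, 10.3 and 11.8 FPKM at 5DPA, then 15.5, 13.3 and 12.2 FPKM at 15DPA. With library totals alone the ABCF4 log2 changes were 0.20 to 0.35 and none of the 4 was called, and each call was also lost without replicate 1 of 15DPA or any one 5DPA library (edgeR adjusted p up to 0.120). Both ABCF1 rises, Gh_A03G042300 and Gh_D03G155100, were likewise not called with library totals (edgeR adjusted p 0.180 and 0.187) or without one of those 4 libraries (up to 0.0921 and 0.0868). The most abundant ABCF genes were not called: Gh_A03G042200, named ABCF1, had means of 26.3 ± 3.11 and 20.9 ± 2.60 FPKM, and Gh_A08G122700, named ABCF3, 22.3 ± 0.951 and 20.7 ± 0.576 FPKM (SD, n = 3 each). Of 14 tested genes for release factors, pelota and GCN2, which act in translation beside these proteins, 3 rose and 1 fell. Among all genes tested 13.0% rose and 10.4% fell.

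ABCI gathers small bacterial-type subunits, among them the iron-sulfur cluster protein ABCI6 of plastids and ABCI17, a relative of the rice aluminium tolerance protein STAR1. Both genes named ABCI20, a soluble protein, were the rises among 14 tested, and none fell. The share called was 14.3%, below the 23.4% of all genes tested. Gh_A11G375300 (A11, 119112217 to 119114449) measured 23.8, 22.0 and 30.6 FPKM at 5DPA, then 44.5, 37.9 and 44.5 FPKM at 15DPA. Gh_D11G383100 (D11, 72253656 to 72256050) measured 11.0, 8.72 and 15.8 FPKM and then 21.8, 18.9 and 21.1 FPKM. Neither gene overlapped between stages, and the log2 changes were 1.03 ± 0.20 and 1.09 ± 0.26 (SE, adjusted p by edgeR 0.0138 and 0.0237). Their calls were lost without replicate 1 of 15DPA or replicate 2 of 5DPA, and for the D11 gene without replicate 1 of 5DPA (edgeR adjusted p up to 0.0605 and 0.0888). The ABCI6 pair had log2 changes of −0.52 and −0.35 and the ABCI17 pair −0.29 and −0.09, with no call. With library totals the ABCI6 genes were called lower (edgeR adjusted p 0.0205 and 0.0235). The 2 genes without a letter are described as Protein ABC transporter 1, mitochondrial, which is a relative of the yeast coenzyme Q protein COQ8 and not a membrane transporter by its family. Both rose, Gh_A11G113300 by a log2 change of 0.87 and Gh_D11G114200 by 0.89, and neither was called with library totals (edgeR adjusted p 0.0694 and 0.123) or without replicate 1 of 15DPA or any one 5DPA library (up to 0.0915 and 0.126).

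The A and D chromosomes carried the members about equally, and no copies of one name were called in opposite directions. On the A chromosomes 25 of 75 tested members rose and 8 fell, and on the D chromosomes 20 of 74 rose and 8 fell. The shares called were 44.0% and 37.8%, against 23.4% of all genes tested. There were 74 cases in which a name had a single matched member on an A chromosome and on the D chromosome of the same number, and in 42 of them both were tested. In 15 of the 42 both were called in the same direction, 11 rises and 4 falls, and in none were the calls opposite. In 7 pairs 1 gene was called, and in 20 neither was. The median difference in log2 change within a pair was 0.29 in size, and it was over 1 in 2 pairs, the ABCC5 pair on chromosome number 11 and the ABCB1 pair on number 9. Mean levels of the partners lay within 1.5 times of each other in 29 pairs and over 3 times apart in 4. Those were ABCB2 with 68.7 FPKM on A03 and 16.8 FPKM on D03, ABCG15 with 98.8 on A05 and 329.5 on D05, ABCG13 with 14.9 on A09 and 90.3 on D09, and ABCB1 with 15.8 on A09 and 2.21 on D09. Reads shared between near-identical partners would make their changes alike, and how far that happened was not tested.

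**Figure D5:**
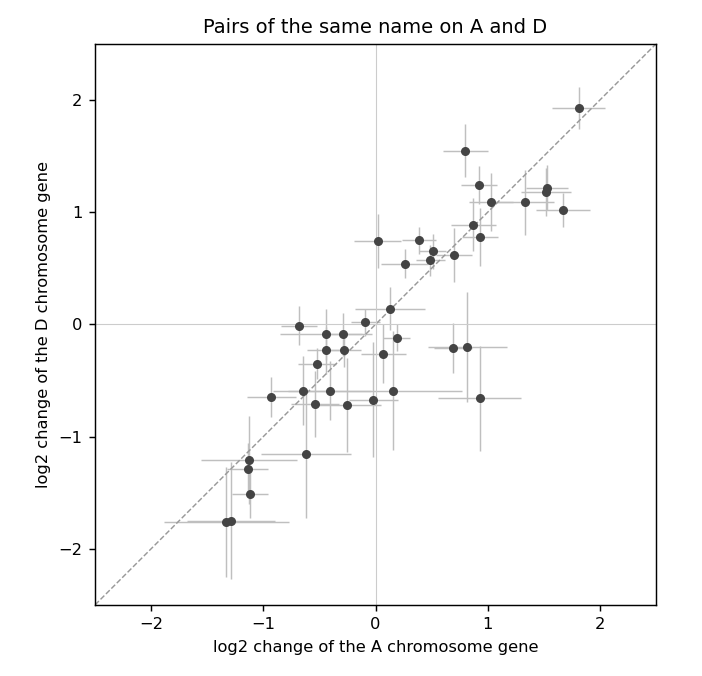
The edgeR log2 change of the A chromosome gene (horizontal axis) and of the D chromosome gene (vertical axis) for the 42 pairs of one name with both genes tested, with bars of 1 SE and a dashed line of equal change. Most points lie near the line, and 2 pairs differ by over 1 on the log2 scale.

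Members also lay in runs along the chromosomes. With at most 5 gene places between neighbours there were 30 runs holding 76 members, and 20 runs held a single name. Only 36 of the 76 were tested. The run of 4 ABCG11 genes on D02 (67275044 to 67354038) had none tested, while the ABCG11 genes that rose stood outside runs. A run on D12 (6687596 to 6860518) held 3 ABCC12 genes and the ABCC1 gene described above, and all 4 were tested with no call. Its counterpart on A12 (8637739 to 8806050) held 3 ABCC12 genes and the ABCC2 gene, with no call. Side by side on A12, the ABCB11 genes Gh_A12G137700 and Gh_A12G137800 had 1 call, with the first higher and the second not called at a log2 change of 0.26 ± 0.81 (SE, adjusted p by edgeR 0.837).

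The 130 members below the limit for testing were mostly silent in these libraries. No read was found for 33 of them in any library, and 83 had under 10 reads in each library. ABCG held 68 of the untested genes, among them all 8 ABCG6 genes, which summed to 0.0764 FPKM at 5DPA, then 0.140 FPKM at 15DPA. The ABCG26 genes, whose Arabidopsis namesake builds the pollen wall, were also untested, at 1.39 FPKM in sum at 5DPA and 0.200 FPKM at 15DPA. A limit on the mean of both stages lets a gene pass through the stage where it is high: 20 tested members had a mean under 1 FPKM in 1 stage, and 11 of them were called. In the other direction, 11 untested members had a mean of at least 1 FPKM in 1 stage.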

How the data were processed

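The authors' deposited table gives a raw read count and an FPKM value per gene and library. The deposited FPKM equals the count per kilobase of gene model and per M counts, as a check of all genes showed. HISAT and StringTie are named in the submitters' processing notes. Build, annotation, counting and strand settings are not given in the sources used, so coordinates are printed as deposited, and overlapping or antisense genes cannot be separated. The table's 2 empty lines were left out.

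Counts were tested with edgeR 4.0.16 in R 4.3.3 (TMM, glmQLFit, glmQLFTest, two-sided) over 40054 genes with a mean of at least 1 FPKM, holding 99.34% of the counts, with Benjamini-Hochberg adjustment and a threshold of 0.05. The biological coefficient of variation was 28% in common, and the code was tested on simulated data. The design allowed limma on log2(FPKM + 1) had the table held no counts. Alternatives used DESeq2 1.42.0 and limma 3.58.1, other filters and scalings, a replicate block, and each library left out. Samples were grouped by their titles. The p-values measure the spread between 3 libraries a stage.

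Named genes were the most abundant members (4 in each of ABCB, ABCC and ABCG, 2 in each of ABCA, ABCE, ABCF and ABCI) and the 8 largest rises and 8 largest falls among called members with separate ranges and at least 1 FPKM in the higher stage, plus partners of the same name; the genes that the rule names in ABCD are not reported here. The members, the lists and the rule were chosen with earlier results of these data known. No reference sequence was matched to the gene IDs, so none is printed.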

Additional observations from a re-analysis of the deposited data

How the results depend on the processing

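Calls of ABC genes followed the scaling and the libraries. The 46 rises became 29 under limma with a pseudocount of 1 and 29 with 0.1, and the 16 falls became 27 with library totals, 29 and 26 under limma with a pseudocount of 1 and 0.1, and 10 with a mean of at least 5 FPKM. The 6 ABCC calls became 12 with no filter and 2 with at least 5 FPKM, and the 27 ABCG calls became 17 with at least 5 FPKM. With 1 library left out at a time, rises ranged from 20 to 52, falls from 5 to 19, ABCB calls from 6 to 16, ABCC calls from 3 to 9, ABCG calls from 13 to 29, calls in the other families from 3 to 18 and calls over all genes from 2319 to 11434. DESeq2 called 73 members. Summed FPKM ratios with the TMM factors added were 1.12 for ABCA, 1.29 for ABCB, 1.13 for ABCC, 1.23 for ABCD, 0.983 for ABCE, 1.15 for ABCF, 2.01 for ABCG and 1.28 for ABCI. Without those factors, and over members of at least 5 FPKM, the ratios were 1.03 for ABCA, 1.14 for ABCD and 1.13 for ABCI. Again without the factors, over all members and with 1 library left out, the ratios ranged from 0.885 to 0.955 for ABCA, 1.01 to 1.12 for ABCB, 0.836 to 1.00 for ABCC, 0.987 to 1.02 for ABCD, 0.774 to 0.836 for ABCE, 0.905 to 0.963 for ABCF, 1.54 to 1.71 for ABCG and 1.02 to 1.08 for ABCI. The cause of these shifts was not tested.

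Among the 34 named genes the log2 change reversed its sign only in genes that were not called. With library totals and limma with a pseudocount of 1 and 0.1, Gh_A08G122700 (ABCF3) had −0.10 in each, Gh_D12G046300 (ABCC1) −0.07, −0.08 and −0.08, and Gh_D08G170500 (ABCE2) −0.27 in each. Gh_D08G170500 also had −0.09 with at least 5 FPKM and −0.07 with upper-quartile scaling. With 1 library left out at a time the log2 change ranged from 0.00 to 0.06 for Gh_D08G170500, from −0.13 to 0.07 for Gh_A03G042200 (ABCF1), from −0.42 to 0.01 for Gh_D11G033700 (ABCA2) and from −0.73 to 0.09 for Gh_D12G272400 (ABCC10).

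Whether the replicate numbers pair the samples was not tested. Deviations of same-numbered libraries correlated at −0.232, 0.345 and 0.069 for replicates 1, 2 and 3. The value for replicate 2 was the highest between any 15DPA and 5DPA library, and not every library correlated best with its own number. A replicate block called 64 members, 46 higher and 18 lower, with 16 ABCB calls against 11.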

Other observations

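Some genes that belong to this superfamily, or whose products work beside its members, carry other descriptions and fell outside the rule. They were found after the descriptions had been read. Of 38 genes described as pleiotropic drug resistance proteins, the long ABCG type under an older name, 6 were tested. Of these 4 rose and none fell, where 13.0% of all genes tested rose and 10.4% fell. In sum the 38 genes measured 10.8 ± 0.734 FPKM at 5DPA, then 16.0 ± 0.896 FPKM at 15DPA (SD, n = 3 each). The edgeR log2 changes of the 4 were 1.47 for Gh_A02G151700, 1.36 for Gh_D03G078800, 1.58 for Gh_A10G066300 and 1.74 for Gh_D05G122000. Of 17 genes described as TRIGALACTOSYLDIACYLGLYCEROL, 13 were tested and none was called, where 23.4% of all genes tested were. Such genes take part in lipid import into plastids and are not all ABC proteins. The 4 genes described as putative multidrug resistance proteins had no read.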
